A study of Mus musculus with 7 samples.

Results

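The albumin gene family on mouse chromosome 5 and the gene Gc were examined for binding of 3 nuclear receptors in liver, the retinoic acid receptors RARα and RARβ and their partner RXRα, a retinoid X receptor. The 4 genes were Alb, Afp, Afm and Gc, out of 21887 protein-coding genes in the gene table. Gc was picked from the peak lists themselves, for a high-scoring RARβ peak called only under retinoic acid (RA), so its RARβ values under the 2 diets are a description and no evidence. A peak, which is a stretch called by the peak caller, was taken when its midpoint lay in the span of a gene or within 50 kb of it, and a peak near several genes was counted once. This gave 138 of the 245004 peaks in the 6 lists.

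Livers came from wild type male C57BL/6 mice aged 3 months, fed normal diet (control) or a diet with RA for 1 day according to the labels. A longer RA treatment is stated in the methods, so how long RA was given remains unclear. Chromatin was precipitated with antibodies against 1 receptor at a time, which gave 6 libraries, 1 per receptor and diet, and a single input library of total chromatin served all groups. There were no replicates, the sources used here do not say whether a library held 1 liver or several, and no test of a difference was possible. All differences below compare these libraries. The lists held 35521 (RARα control), 44296 (RARα RA), 14968 (RARβ control), 29467 (RARβ RA), 61128 (RXRα control) and 59624 (RXRα RA) peaks. The study reports ChIP sequencing of RARα and RXRα, with a mapped read total for each. It describes no RARβ libraries and no sequencing by diet, so depth cannot be stated list by list.

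Albumin is the main protein of plasma and carries fatty acids, bilirubin and hormones. Afp encodes alpha-fetoprotein, its fetal counterpart, which the liver shuts off after birth, and Afm encodes afamin, a carrier of vitamin E. Gc encodes the vitamin D binding protein, which also binds actin. The 4 proteins are related, are secreted by hepatocytes, and their genes arose by duplication. An enhancer upstream of Alb and several enhancers between Alb and Afp are known to drive the cluster in liver. RARs bind DNA as heterodimers with RXR, at repeats of a short hexamer half-site, and RA is the ligand of the RARs. RXRα also pairs with receptors for fatty acids, bile acids, oxysterols and vitamin D.

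By the GRCm38.p6 annotation, Gc (gene ID 14473) spans chromosome 5, 89417511 to 89457898, on the minus strand. Alb (11657) spans 90460870 to 90476602, Afp (11576) 90490714 to 90508907 and Afm (280662) 90518949 to 90553544, all on the plus strand. Gc lies 1003 kb from Alb, while 14.1 kb separate Alb from Afp and 10 kb separate Afp from Afm, so the windows of these 3 genes overlap. Besides the 4 genes, 2 protein-coding genes reach into the window of Afm. They are Albfm1 (90560626 to 90598127), whose symbol stands for albumin superfamily member 1, and Rassf6. Exons, introns and untranslated regions of this build were not analysed here.

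The promoters are shown because peaks lay over some of them and not over others. Each line is a RefSeq sequence of GRCm38.p6 from 250 bp before to 50 bp after the start of the gene, in the direction of transcription. The windows are chr5:89457849-89458148 (minus strand) for Gc, chr5:90460620-90460919 for Alb, chr5:90490464-90490763 for Afp and chr5:90518699-90518998 for Afm. Capitals mark the nuclear receptor half-site AGGTCA with its variants, which are GGGTCA as one, then AGTTCA as another and finally GGTTCA as the last, and the letters GTTAATNAT, each searched on both strands.
Gc: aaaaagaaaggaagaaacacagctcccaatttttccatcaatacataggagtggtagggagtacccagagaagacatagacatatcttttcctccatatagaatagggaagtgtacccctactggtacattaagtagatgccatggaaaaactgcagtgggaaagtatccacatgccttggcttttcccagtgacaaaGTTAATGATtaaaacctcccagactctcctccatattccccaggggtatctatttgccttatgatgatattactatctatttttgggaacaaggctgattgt
Alb: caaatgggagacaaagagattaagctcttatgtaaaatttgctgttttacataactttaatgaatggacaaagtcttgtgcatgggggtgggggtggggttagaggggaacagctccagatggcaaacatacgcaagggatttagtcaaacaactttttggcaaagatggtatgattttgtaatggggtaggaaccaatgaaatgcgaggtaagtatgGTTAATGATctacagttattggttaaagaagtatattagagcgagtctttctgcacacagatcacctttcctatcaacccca
Afp: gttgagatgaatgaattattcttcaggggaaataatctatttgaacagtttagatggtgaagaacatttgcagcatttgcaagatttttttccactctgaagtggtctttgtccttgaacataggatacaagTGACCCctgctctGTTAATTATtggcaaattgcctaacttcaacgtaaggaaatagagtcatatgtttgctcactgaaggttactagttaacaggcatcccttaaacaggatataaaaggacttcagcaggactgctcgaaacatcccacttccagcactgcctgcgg
Afm: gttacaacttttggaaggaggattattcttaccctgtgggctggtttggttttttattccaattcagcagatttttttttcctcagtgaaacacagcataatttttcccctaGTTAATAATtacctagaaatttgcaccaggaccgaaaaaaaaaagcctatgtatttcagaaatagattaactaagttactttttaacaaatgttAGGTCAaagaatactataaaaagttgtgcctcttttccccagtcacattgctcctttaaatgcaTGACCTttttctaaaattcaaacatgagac

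All 4 promoters held GTTAATNAT once on the sense strand. It began 52 bases before the start in Gc, 32 in Alb, 105 in Afp and 138 in Afm. These letters are the left part of the known consensus of hepatocyte nuclear factor 1, a liver transcription factor. They were searched only after the 4 windows had been read, so the count of 4 is a description. Of all 17492 protein-coding genes with a promoter window, 151 (0.863%) held them. The receptor half-sites were not shared in this way. With the first base of the gene counted as 1 and the base before it as -1, Afm held AGGTCA on the sense strand from base -44 to -39 and again on the other strand from 21 to 26, and Afp held GGGTCA on the other strand from -118 to -113. No half-site lay in the windows of Gc and Alb, whereas 44.7% of the genes had at least 1 in theirs. No pair of half-sites on 1 strand at a spacing of 0 to 5 bases was found in the 4 windows.

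The peaks over these promoters differed between the genes. The Gc promoter was overlapped by a peak in 5 lists, with scores of 115 (RARα control), 305 (RARα RA), 55.5 (RARβ control), 80.2 (RXRα control) and 106 (RXRα RA). The RARβ control peak lay over 170 of the 300 bp of the window, and the others over all of it. The score is the peak caller's own value. The sources used here do not define it, and MACS usually writes one that grows as the p-value falls. It was not normalized between lists, and it is compared by rank within a list, apart from a minimum score tried as an alternative. The RARα peak at the Gc promoter thus stood at rank 17315 under the control diet (48.7% down the list) and at rank 6394 under RA (14.4%). The RARβ list under RA had no peak there, and its nearest peak began 160 bp beyond the upstream edge of the window.

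The Alb promoter had a peak only in the RXRα lists, with scores of 172 under the control diet (rank 25715, 42.1%) and 306 under RA (rank 13534, 22.7%). The nearest RAR peaks were 10124 to 20944 bp from its edge. The Afm promoter had a peak for RARα and RXRα under each diet and none for RARβ. The scores there were 171 and 156 for RARα, and 96.0 and 69.9 for RXRα, with the control diet given first. The Afp promoter had none in any list. The nearest peak was a RARα control peak 849 bp away, and in the other 5 lists the nearest lay 4189 to 4493 bp away. For comparison, a peak lay over a promoter window in 48.7% (RARα control), 47.9% (RARα RA), 34.7% (RARβ control), 42.4% (RARβ RA), 39.5% (RXRα control) and 42.1% (RXRα RA) of the 17492 genes.

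All 4 genes had at least 1 peak in the window in each of the 6 lists. This held for 83.0% (RARα control), 84.2% (RARα RA), 69.7% (RARβ control), 77.2% (RARβ RA), 83.1% (RXRα control) and 83.7% (RXRα RA) of all protein-coding genes, so presence alone sets the 4 genes little apart. The numbers of peaks varied more. The first value of each pair below is for the control diet and the second for RA. Gc had 6 and 8 peaks for RARα, 5 and 7 for RARβ, and 12 and 10 for RXRα. Alb had 12 and 12 for RARα, 3 and 8 for RARβ, and 15 and 15 for RXRα. Afp had 9 and 8, 1 and 5, and 12 and 12, and Afm had 10 and 11, 3 and 7, and 12 and 11. RXRα was the receptor with the most peaks at every gene under each diet except for Afm under RA, where RARα had the same number.

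**Figure D1:**
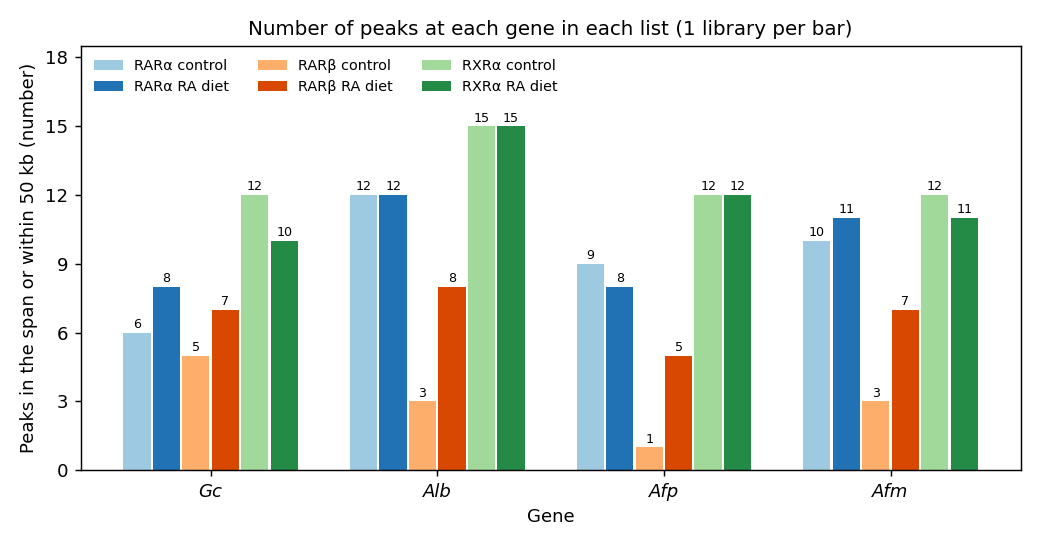
Number of peaks (vertical axis) with a midpoint in the span of each gene or within 50 kb of it (horizontal axis), 1 bar per list and library, with no error bars because each list is 1 library. RXRα reached 15 peaks at Alb under both diets, while RARβ had 1 peak at Afp under the control diet and 5 under RA. Peaks in overlapping windows appear under each of those genes.

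Against the whole gene table, Alb stood out more than Gc for RARα. At least 12 RARα peaks, as at Alb, were found at 1.62% of protein-coding genes under the control diet and at 5.30% under RA, and at least 15 RXRα peaks at 5.96% and 5.39%. For RARβ, 32.0% of genes had at least the 3 control peaks of Alb, and 9.92% had at least its 8 peaks under RA. The counts of Gc were reached by 30.2% and 23.2% of genes for RARα, by 11% and 15.2% for RARβ, and by 13.6% and 21.6% for RXRα. These shares count the gene itself, and longer genes have wider windows.

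Together, the 4 genes had 22 and 25 peaks for RARα, 10 and 20 for RARβ, and 32 and 29 for RXRα. From the control diet to RA the RARα count thus changed by a factor of 1.14, that of RARβ by 2.0 and that of RXRα by 0.906. The whole lists gave 1.25, 1.97 and 0.975. The RARβ factor pools Gc with the cluster, whose factors differ as given below, so no closeness to the RARβ list is read from it. With a minimum score of 100, RXRα had 22 and 25 peaks, so its direction turned. The whole RXRα lists held 39631 and 39259 peaks at that limit. With all lists cut to 14968 peaks RARβ had 10 and 10 and RXRα 13 and 13. With a window of 10 kb, RARα had 12 and 10. For RARβ, the cluster of Alb, Afp and Afm had 5 and 13 peaks (2.60 times), and Gc had 5 and 7 (1.4 times). Gc was picked for a RARβ peak of 1 diet, so no difference between the loci is read from these values. With all lists cut to 14968 peaks, the cluster had 5 and 7 and Gc 5 and 3. The length covered by RARβ peaks rose from 1.26% to 5.77% of the 193 kb at the cluster, and from 2.10% to 3.63% of the 140 kb at Gc, which is 4.57 and 1.73 times. Over the whole RARβ lists, the covered length was 2.73 times as large under RA. RXRα covered 9.25% and 9.20% of the cluster.

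At Gc, the highest-scoring peaks of the 6 lists lay at different places. The peak for which Gc was picked lay upstream, at chromosome 5, 89466890 to 89467473, with its midpoint 9.3 kb from the start. It had a score of 689 and stood at rank 147 of the 29467 RARβ peaks under RA (0.499%). It was the highest of the 17999 RARβ peaks under RA that no control peak overlapped, and the next ones, at other loci, had 677 and 579. No RARβ control peak overlapped it, and the nearest control midpoint was 9.67 kb away, at the promoter.

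The other receptors had peaks at this upstream site under both diets. RXRα had a score of 285 under the control diet (rank 14893, 24.4%) and 613 under RA (rank 3935, 6.60%). RARα had 55.4 (rank 32825, 92.4%) and 134 (rank 20342, 45.9%). RXRα and RARα thus stood higher in their own list under RA, and the RARα lists differ in length. The RXRα peak under RA covered 87.2% of the RARβ peak, and the RARα peak under RA 93.8%, with midpoints 61.0 and 6.00 bp nearer to the gene than that of the RARβ peak. With a minimum score of 100, the site was called in 4 lists, without RARα control. With all lists cut to the 14968 highest-scoring peaks, the length of the shortest list, it was called in 3, without either RARα list, and the RXRα control peak at rank 14893 was then just inside.

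**Figure D2:**
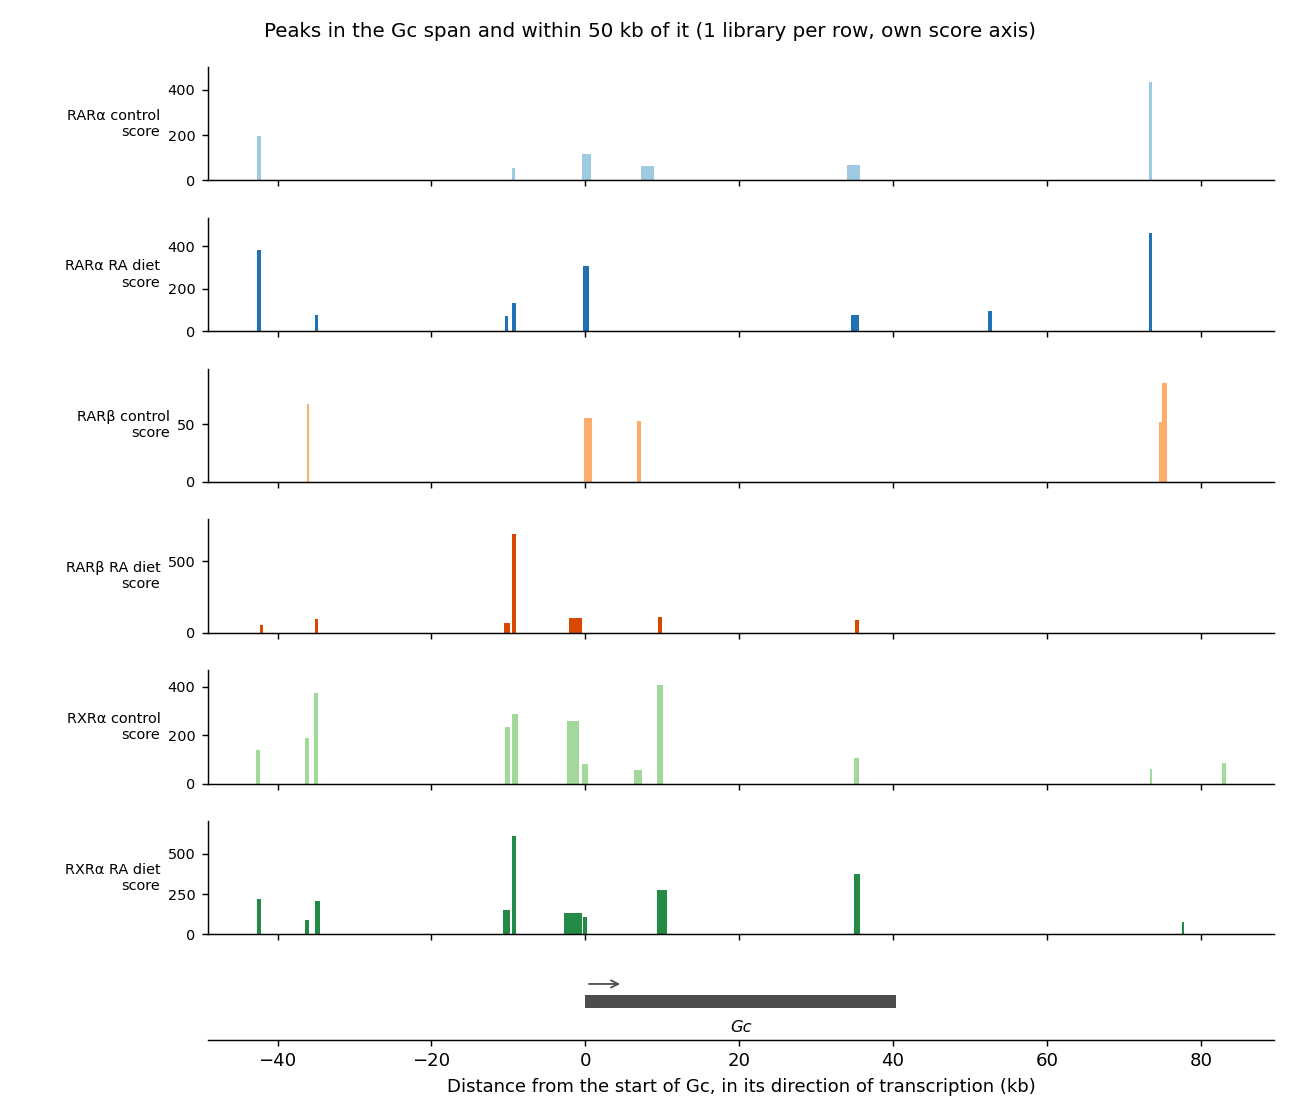
Peaks at Gc by distance from its start (horizontal axis, kb, negative values upstream) and score (vertical axis, its own scale in each row), 1 row per list and library, with bar width equal to peak width and the gene span drawn at the bottom. The tall bar upstream of the start in the RARβ RA row (score 689) has a counterpart in every row except RARβ control.

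Merging overlapping peaks of the 6 lists gave 15 regions at Gc and 24 at the cluster, 39 in all. The region over the start of Gc (89457003 to 89460619) was the only 1 of the 15 with a call in every list, and it joined neighbouring peaks. RXRα had separate peaks at the start and just upstream of it under each diet, the upstream ones with scores of 259 and 131. The RARβ control peak covered the start (89457003 to 89458018, score 55.5), whereas the RARβ peak under RA lay upstream (89458308 to 89460071, score 105), and the pair did not overlap. So no RARβ peak of 1 diet overlapped one of the other diet at Gc.

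Besides the site that was picked, 2 regions at Gc had a call in every list but RARβ control. The first lay inside the gene, 34.9 kb from the start. Its RXRα score was 104 under the control diet (62.9% down the list) and 372 under RA (17.2%), the RARα scores were 66.3 and 76.8, and the RARβ score under RA was 87.4. The second lay 42.3 kb upstream, where RARα had 195 (27.0%) and 383 (8.19%), RXRα had 139 and 223, and RARβ under RA had 55.6 (90.9%). A region inside the gene, 9.9 kb from the start, had RXRα peaks of 407 (14.0%) and 275 (26.1%) and a RARβ peak under RA of 108, without RARα. RXRα thus stood lower under RA in this region and higher in the one before.

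Upstream regions at 10.3 and 34.9 kb had RXRα peaks under both diets, and RARα and RARβ peaks under RA only. Their RXRα scores were 235 and 150 at the first, and 372 and 210 at the second, and the RAR scores under RA were between 64.8 and 94.7. In contrast, a region 36.2 kb upstream had a RARβ peak under the control diet only (67.3), with RXRα at 188 and 91.7, and a region inside the gene, 7.6 kb from the start, had weak control peaks of all 3 receptors (53.0 to 63.4) and none under RA. Downstream, 73.5 kb from the start, lay the highest-scoring RARα peaks of the Gc window, with 434 (5.33%) and 464 (4.49%). Only RXRα control joined them there, at 58.4 (92.0%). The other 5 regions, 52.6 to 83.0 kb from the start, were each called in 1 list, with scores of 52.1 to 93.5. Among them was the highest RARβ control peak of the Gc window, 75.3 kb from the start, with 85.2 (41.8%).

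At the cluster, RXRα had high-ranking peaks in a row of regions upstream of Alb, and also upstream of Afp and at Albfm1. Its highest-ranking peak near the 4 genes lay upstream of Alb under each diet. The region 13.2 kb from the start of Alb (90447114 to 90448298) had RXRα scores of 1093 (rank 551, 0.901%) under the control diet and 935 (rank 1194, 2.0%) under RA. The region at 21.5 kb (90438910 to 90439844) had 1065 (rank 614, 1.00%) and 983 (rank 992, 1.66%). Regions at 35.8 and 46.1 kb had RXRα scores of 736 to 852, all within the first 3.62% of their lists. Next came the region 3.4 kb upstream, with 536 (8.22%) and 412 (14.7%).

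Of the 8 regions upstream of Alb, the 6 that lay 10.8 to 46.1 kb away also had RAR peaks. RARβ was called in 2 of these 6 under the control diet and in all 6 under RA. At 13.2 kb it went from no call to a score of 254 (rank 2278, 7.73%), which was its highest peak at Alb. The regions at 46.1, 29.6 and 10.8 kb also had a RARβ peak under RA only, with 123 (37.1%), 69.9 (73.1%) and 115 (41.0%). At 35.8 kb it had 73.2 (53.5%) under the control diet and 203 (13.9%) under RA. At 21.5 kb it had 83.8 (42.9%) and 62.6 (81.5%), so it stood lower in the RA list there. RARα was called in the 6 regions under both diets, and it stood higher in the list under RA in 4 of them, at the same place (88.1%) at 29.6 kb and lower at 13.2 kb. It had 99.7 (55.8%) and 152 (40.2%) at 46.1 kb, and 56.1 (91.4%) and 163 (37.2%) at 35.8 kb. The RARα peaks of the 2 diets at 35.8 kb did not overlap each other, although they fell in the same merged region. At 10.8 kb upstream, RARα had 67.5 (78.5%) and 258 (19.7%), and at 21.5 kb 57.8 (89.2%) and 177 (33.7%), whereas at 13.2 kb it had 123 (45.5%) and 95.6 (62.4%). The remaining regions, at 3.4 and 0.1 kb, had RXRα peaks alone under both diets.

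The end of Alb carried the widest peaks at these genes. The region ran from 90473836 to 90478683, across the end of the span, and was called in every list but RARβ control. The RARα peaks there were 4848 bp wide under the control diet and 4782 bp under RA, ranks 61 and 62 by width in lists with median widths of 583 and 450 bp. Their scores were 78.2 (69.2%) and 150 (40.8%). The RXRα peaks were 2685 and 2790 bp wide, with 170 (42.4%) and 230 (32.1%), and the RARβ peak under RA was 2023 bp wide, with 168 (21.4%).

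**Figure D3:**
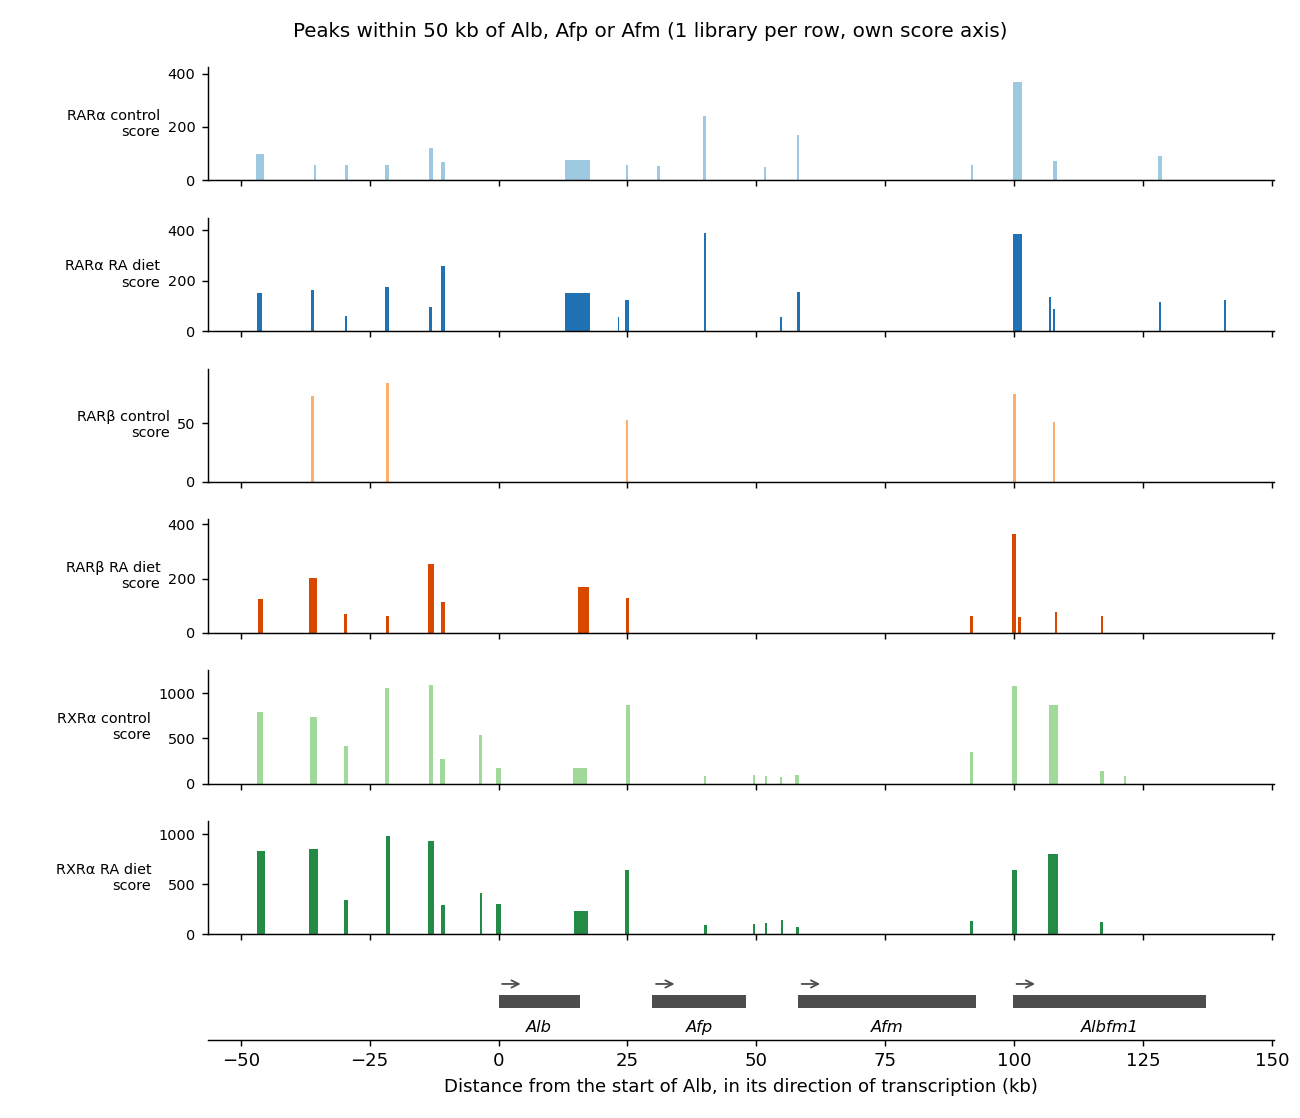
Peaks within 50 kb of Alb, Afp or Afm by distance from the start of Alb (horizontal axis, kb, negative values upstream) and score (vertical axis, its own scale in each row), 1 row per list and library, with bar width equal to peak width and gene spans at the bottom. The tall RXRα bars stand upstream of Alb, between Alb and Afp, and over the start of Albfm1, and RARβ has 5 peaks in the control row and 13 in the RA row.

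Between Alb and Afp, 1 region was called in all 6 lists, 4.9 kb upstream of the start of Afp (90485401 to 90486275). RXRα had 870 (rank 1304, 2.13%) under the control diet and 646 (rank 3461, 5.80%) under RA there. RARα had 59.5 (87.0%) and 123 (50%), and RARβ had 52.3 (92.1%) and 128 (35.1%). RXRα stood lower and both RARs stood higher in their lists under RA. Another RARα peak under RA alone lay 6.6 kb upstream of Afp, with 55.4.

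Inside Afp, RARα had the higher rank and RXRα the lower. A region 10.2 kb from the start of Afp (90500570 to 90501225) had RARα scores of 240 (20.2%) and 390 (7.74%), which were the highest RARα peaks at Alb and Afp. RXRα had 88.9 (70.2%) and 93.0 (69.2%) there, and RARβ had no peak under either diet. A RARα control peak 1.2 kb from the start of Afp had 55.7. From this gene body to the promoter of Afm, no region had a RARβ call, while RXRα was called under both diets in the region inside Afp and in the 4 regions between 8.5 and 0.1 kb upstream of Afm, with scores of 69.9 to 146. In these 4 regions RARα was called under both diets only at the promoter of Afm. It had a control peak alone 6.3 kb upstream (51.2) and an RA peak alone 3.2 kb upstream (57.4).

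Within Afm itself, 1 region lay near its end (90552225 to 90552963), with RXRα at 344 (18.4%) and 134 (53.4%), RARα control at 59.1 and RARβ under RA at 63.4. Beyond the gene, at Albfm1, lay the highest peaks of the Afm window in every list except RARα under RA, where the peak inside Afp was higher. The region over the start of Albfm1 (90560436 to 90562443) was called in all 6 lists. Its RXRα scores were 1079 (rank 584, 0.955%) and 642 (rank 3506, 5.88%), its RARα scores 369 (8.32%) and 383 (8.17%), and its RARβ scores 74.9 (51.3%) and 363 (rank 820, 2.78%). A second region, 7.8 kb into Albfm1, was also called in all 6 lists, with RXRα at 870 and 798. Farther into Albfm1, at 17.2 kb, RARβ was called under RA only (61.4) beside RXRα under both diets (143 and 120). Single-list calls were RXRα control at 21.7 kb (82.4) and RARα under RA at 41.1 kb (124), past the end of the gene. Apart from the Gc site, the RARβ peak over the start of Albfm1 was the highest of RARβ under RA near these genes.

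**Figure D4:**
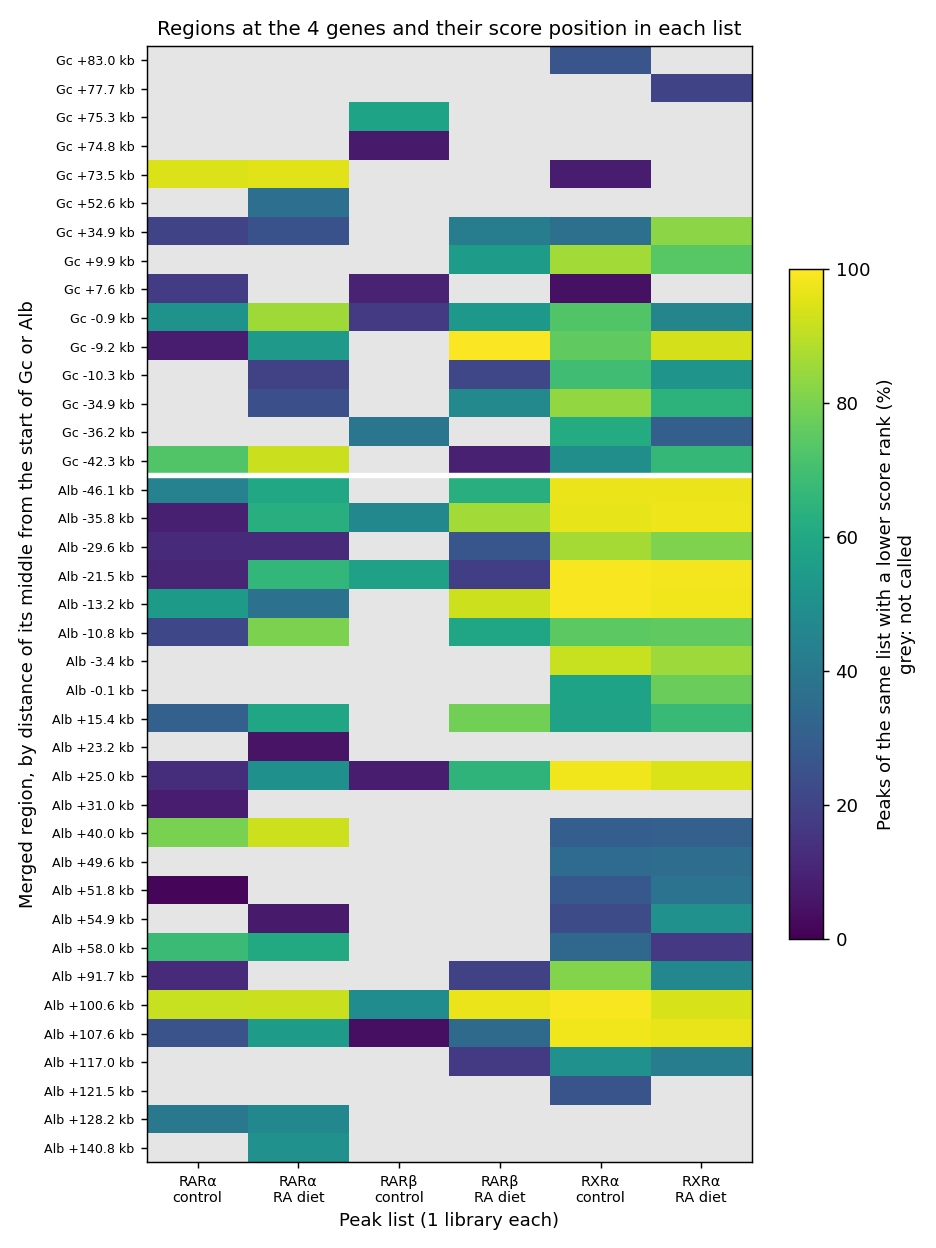
Score position of the 39 merged regions (rows, by distance of their middle from the start of Gc or Alb in kb) in each of the 6 lists (columns, 1 library each), coloured by the percent of peaks of that list with a lower rank, grey where not called. The RXRα columns are bright in regions upstream of Alb, upstream of Afp and at Albfm1, and 13 regions are coloured for RARβ under RA and grey for RARβ control.

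Over the 39 regions, the calls fell into a few patterns. In 27 regions RXRα was called under both diets, in 18 RARα and in 6 RARβ. The shares over all regions were not computed for these counts. The RXRα lists were the longest and the RARβ control list the shortest, so the order of the receptors is not read as a trait of these genes. All 6 lists called 6 regions (15.4%), against 9.75% of the 87802 merged regions of the genome. Every list but RARβ control called 8 (20.5%), against 6.69%. The site for which Gc was picked is 1 of the 8, and the cluster alone had 5 (20.8% of its 24 regions). RARβ was called under RA only in 13 regions (33.3%), and each of these had RXRα under both diets, a combination found in 16.5% of all regions. Of the 13, 6 lay at Gc, among them the picked site, and 7 at the cluster (29.2% of its 24 regions). RARβ under the control diet only was found in 4 regions, all at Gc. The share of this pattern over all regions was not computed and Gc was picked for a RARβ peak, so nothing is read from it. RXRα under both diets without a RAR was seen in 3 regions (7.69%), all at the cluster, against 16.9%, and a RAR without RXRα in 7 (17.9%), against 20.1%. Gc was picked for 1 of the RARβ regions, and merged regions of a locus are neighbours and not replicates.

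The same receptor was then compared between the diets, and a peak counted as shared if its overlap with some peak in the second list made up 25% or more of both widths. Of the RARα peaks at the 4 genes, 17 of 22 under the control diet (77.3%, Wilson 95% interval 56.6 to 89.9) and 17 of 25 under RA (68.0%, 48.4 to 82.8) were shared. Of the RARβ peaks, 4 of 10 (40.0%, 16.8 to 68.7) and 4 of 20 (20.0%, 8.07 to 41.6) were shared. Of the RXRα peaks, 28 of 32 (87.5%, 71.9 to 95) and 28 of 29 (96.6%, 82.8 to 99.4) were shared. In the whole lists, the shares were 84.2% and 68.4% for RARα, 75.8% and 38.2% for RARβ, and 78.7% and 80.3% for RXRα. The RARβ shares pool Gc, which was picked for a RARβ difference between the diets, so nothing is read from them. At the cluster alone, 4 of 5 RARβ control peaks were shared (80%, 37.6 to 96.4). For RARβ under RA it was 4 of 13 (30.8%, 12.7 to 57.6). Both intervals hold the share of their list. At Gc, 0 of 5 control and 0 of 7 RA peaks were shared, and no contrast between the loci is read from this. The interval of the RXRα RA share lay above the share of its list, but the share was 76.9% of 13 peaks with all lists cut to 14968 peaks and 84% of 25 with a minimum score of 100. Whole-list shares under these limits were not computed. Neighbouring peaks are not independent draws. The intervals cover counting error only.

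Between receptors, 19 of 22 RARα control peaks (86.4%, 66.7 to 95.3) and 19 of 25 RARα peaks under RA (76.0%, 56.6 to 88.5) were shared with RXRα, against 61.1% and 61.7% in the whole lists. For RARβ and RXRα, the counts were 7 of 10 (70.0%, 39.7 to 89.2) and 17 of 20 (85.0%, 64.0 to 94.8), against 77.8% and 89.9%. RARβ shared 5 of 10 control peaks (50%, 23.7 to 76.3) and 14 of 20 RA peaks (70.0%, 48.1 to 85.5) with RARα, against 74.2% and 72.1%. The interval of the RARα control share with RXRα was the only 1 of these 6 that lay wholly above the share of its list. Neighbouring peaks are not independent draws, so no difference is read from it. With all lists cut to 14968 peaks this share was 20% of 5 peaks. The matching share of the whole cut list was not computed.

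The window limit of 50 kb left a gap at Gc, whereas at Afp peaks lay just outside it. The first peak outside the Afp window lay 51.3 to 51.5 kb from the span in every list. These had scores of 1065 and 983 for RXRα and 83.8 and 62.6 for RARβ, so the Afp counts depend on the limit. The outermost peaks inside the Gc window lay 36.1 to 42.6 kb from the span, and the first outside lay 59.3 to 239 kb from it. For RARα under RA at Alb, the last peak inside lay at 46.4 kb with a score of 152, and the first outside at 55.5 kb with 533.

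Genes with related roles were counted in the same way, and most genes of any kind have a peak in the window, as given above. Of 12 other carrier proteins that the liver secretes, such as Ttr, Rbp4 and Trf, 11 had a RARα peak in the window under the control diet and 12 under RA, 11 had a RARβ peak under each diet, and 12 had an RXRα peak under each. Serpina7, the thyroxine carrier of the serpin family, lacked a RARα peak under the control diet and a RARβ peak under RA, and Ttr lacked a RARβ peak under the control diet. The median number of RARα peaks per gene was 5.50 and 7.50, of RARβ peaks 2.0 and 5.0, and of RXRα peaks 8.50 and 8.0, against 4 and 4, 1 and 3, and 5 and 5 over all protein-coding genes. Of 7 genes of vitamin D activation, breakdown, uptake and sensing, all 7 had RARα and RXRα peaks under both diets, and RARβ had peaks at 6 and 7. The gene without one was Vdr, the vitamin D receptor, under the control diet.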

How the data were processed

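Chromatin immunoprecipitation followed by sequencing was performed on mouse liver with single-end reads of 35 bp. Per the study's methods, the authors used Bowtie for alignment to mm10 and MACS for peak calling, and the labels also name CASAVA 1.4. The deposited score of each peak is the caller's own value, with no normalization between lists, so it was used for ranks within a list and, as an alternative, with 1 minimum for all lists. There is 1 list per library. The study gives read totals for RARα and RXRα, which were not used. It describes no RARβ libraries and no sequencing by diet. The input library was not analysed here on its own, and no other value column was used.

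Gene spans came from RefSeq for GRCm38.p6 (mm10), and strands and promoter sequences from the RefSeq promoter table of the same build. The reference genome given, NCBIM37, is another build and was not used, so no sequence of distal peaks was read. Starts were converted to 1-based positions. Peaks were counted, ranked (ties given the best rank) and overlapped with Python 3.11.15, Wilson intervals came from scipy 1.17.1, and counting was tested on made-up peaks with known answers. Regions are peaks of the 6 lists merged where they overlap by at least 1 bp.

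Groups came from the sample titles. With 1 library per group no test was run. The named peaks are the highest-scoring peak of each list at each gene, every region at Gc, and at the cluster the regions called in all 6 lists or for a receptor under 1 diet only. Other cluster regions are described because of their values. The genes, comparison lists and rules were chosen with earlier results of these data known, and the letters GTTAATNAT after the promoters were read. Alternatives were windows of 10 and 100 kb, a score of at least 100, lists of equal length (14968 peaks), any overlap, and an overlap of 50%.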

Additional observations from a re-analysis of the deposited data

Results flagged for a closer look

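In the full lists, the number of peaks changed in different directions between receptors under RA, which did not hold under every alternative. At the 4 genes together, RARα had 3 more peaks under RA and RARβ had 10 more, while RXRα fell by 3. At Gc, RARα had 2 more, RARβ had 2 more and RXRα fell by 2. At the cluster of Alb, Afp and Afm, RARα had 1 more, RARβ had 8 more and RXRα fell by 1. Each count comes from 1 library, and the difference between receptors was not tested. With a minimum score of 100, all 3 receptors had more peaks under RA at the 4 genes (7 and 16 for RARα, 0 and 10 for RARβ, 22 and 25 for RXRα). With lists of equal length the counts were 5 and 7, 10 and 10, and 13 and 13, and with a window of 10 kb they were 12 and 10, 4 and 9, and 17 and 16. Without these limits, the lists as wholes moved in the same directions as the first counts. They had 1.25, 1.97 and 0.975 times as many peaks under RA for RARα, RARβ and RXRα.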

How the results depend on the processing

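No paired analysis was possible because each receptor and diet has 1 library, and no result comes from a test. Lists are given in the order RARα control, RARα RA, RARβ control, RARβ RA, RXRα control and RXRα RA. With a window of 10 kb, peaks at the 4 genes numbered 12, 10, 4, 9, 17 and 16, at the cluster 8, 7, 2, 5, 11 and 11, and at Gc 3 (RARα RA), 2 (RARβ control), 4, 6 and 5. With a window of 100 kb, only Gc moved by over 1.5 times, to 13 (RARα RA), 12 (RARβ RA), 21 and 18 (RXRα).

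With a minimum score of 100, the 4 genes had 7, 16, 0 and 10 RAR peaks, so RARβ control kept none of its 10, and 22 and 25 RXRα peaks, so the RXRα count was higher under RA. The whole RARβ control list kept 4786 of its 14968 peaks, and the whole RXRα lists kept 39631 and 39259. Gc had 3, 4, 0 and 3 RAR peaks, and the cluster had 4 (RARα control), 0 (RARβ control) and 7 (RARβ RA). Regions numbered 7 (RARα control), 0 (RARβ control) and 10 (RARβ RA), with 0 called in all 6 lists and 2 in every list but RARβ control. With lists of equal length, the 4 genes had 5, 7, 10 (RARβ RA), 13 and 13 peaks, Gc 2, 3, 3, 3 and 2, and the cluster 3, 4, 7, 10 and 11. RARβ control, the shortest list, kept its 10, 5 and 5 peaks. Regions numbered 5, 7, 10, 13 and 13, with 1 called in all 6 lists, 0 in every list but RARβ control, and 7 for RARβ under RA only.

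Shares between diets moved under that minimum to 37.5% (RARα RA), 0% (RARβ RA, where no control peak was left) and 95.5% (RXRα control), and with equal length to 76.9% (RXRα RA). Shares with RXRα moved to 95% with any overlap (RARβ RA) and to 56.0% with an overlap of 50% (RARα RA). They moved to 42.9% and 100% with the score limit (RARα control, RARβ RA), and to 20.0% and 42.9% with equal length (RARα control, RARα RA). Whole-list shares were not computed at equal length, so these RARα shares have no matching background. Shares of RARβ with RARα moved to 10% and 20.0% with equal length. The share of all genes with a peak was 76.8%, 79.7%, 45.6%, 67.4%, 77.8% and 78.1% with the score limit, and 72.2%, 71.7%, 67.8% (RARβ RA), 55.8% and 56.4% with equal length. RARβ control peaks with the score limit were at 5 of the carrier proteins and 2 of the vitamin D genes. Of the 24 best ranks of a gene in a list, 14 moved with a window of 10 kb. The count of lists at the upstream Gc site under these limits was added after seeing the data. Read totals per list are not given in the sources used here, so comparisons between lists are limited by unknown depth.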

Other observations

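The stretch between Gc and Alb, outside both windows, was compared with the genes themselves. Over its 903 kb, peaks numbered 15 (control) and 14 (RA) for RARα, 4 and 11 for RARβ, and 22 and 19 for RXRα. Per 100 kb, this came to 1.66 and 1.55 for RARα, 0.443 and 1.22 for RARβ, and 2.44 and 2.10 for RXRα. The values at the cluster were 8.30 and 8.82, 2.60 and 6.75, and 10.4 and 9.86, and those at Gc were 4.27 and 5.70, 3.56 and 4.99, and 8.55 and 7.12. Every list had more peaks per 100 kb at both loci than between them. The stretch was chosen after the values at the genes were seen, and Gc was picked for a peak. The cause was not tested.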
